A study of Rattus norvegicus with 18 samples.

Results

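The genes described here encode receptors that hold a cell to laminin in its basal lamina: the integrin chains Itgb4, Itga6, Itga7, Itgb1, Itga1, Itga2 and Itga3, and dystroglycan, Dag1. They were found by gene name in the deposited peak list and by the paired gene identifier in the RNA count table. The 8 genes are part of 16140 genes named in the peak list, and they hold 101 of its 215951 peaks. Of these peaks, 95 are classed as gene body and 6 as promoter. All 8 genes had enough reads to be tested in RNA, and all 101 peaks were tested. The cells of both groups were primary rat Schwann cells taken at passage 3, labelled control or VitC (vitamin C). For each group 3 libraries were sequenced of RNA, 3 of DNA precipitated for 5-hydroxymethylcytosine (hMeDIP) and 3 of genomic input DNA. The sources used here do not give the dose and duration of vitamin C, the rat strain and age, or whether libraries of a group came from separate cultures. The p-values therefore measure the spread between these libraries, which may be technical.

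Schwann cells build a basal lamina on their outer surface, and its laminins are read by 2 kinds of receptor. Integrins are pairs of an alpha and a beta chain that join laminin to the cytoskeleton. Dystroglycan is a sugar-coated surface protein that joins laminin to dystrophin or its relatives. In peripheral nerve, integrins of the Itgb1 chain are known for the sorting of axons by immature Schwann cells, while Itgb4 paired with Itga6, and dystroglycan, are known from the outer membrane of myelinating cells. 5-hydroxymethylcytosine is the first product of TET enzymes, which oxidise methylated cytosine and use vitamin C as a cofactor.

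Read depth was 23381814 to 33173282 reads in genes for RNA, 24020306 to 39899445 reads in peaks for hMeDIP and 7201638 to 9521037 for input. VitC replicate 1 of RNA stood apart: its chi-square per degree of freedom was 29.3 and 41.0 against replicates 2 and 3, which gave 5.54 between them. All 8 Schwann cell markers were tested, and their summed level was 11898 to 12169 CPM in controls and 11430 to 12170 CPM with vitamin C (CPM, reads in a gene relative to all reads in genes, with TMM scaling). Of these markers Cdh19 and Gas7 rose, S100b and Erbb3 fell and 4 did not pass. S100b, a calcium-binding protein of glia, was at 1172 ± 42.4 CPM in controls and 589 ± 36.4 CPM with vitamin C (SD, n = 3). The number that fell was 1 without any one of the libraries other than VitC replicate 1, and the number that rose was 4 without VitC replicate 1. Of 4 tested fibroblast markers 1 rose, the collagen gene Col1a1, and 3 fell, and Dpt, a defining one, had 0 reads in all libraries. Of endothelial, epithelial and macrophage markers 1 each was tested: Tek rose, Epcam fell and the macrophage marker did not pass, and the endothelial marker Cdh5 had 0 reads. In hMeDIP, replicates 1 and 3 of each group differed by less than the sampling noise (chi-square per degree of freedom 0.963 in controls and 0.896 in VitC). They were summed and counted as 1 sample, so hMeDIP means and SDs are over n = 2 per group, while values per library are given for all 3.

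In RNA, the beta chain Itgb4 and the alpha chain Itga1 rose several-fold with vitamin C, Itgb1 and Itga6 rose slightly, and Itga3 and Itga7 fell. Thus 4 of 8 genes were higher, 2 were lower and 2 did not pass (edgeR quasi-likelihood test, Benjamini-Hochberg adjusted over all genes). Over all 12925 genes tested, 19.1% were called higher and 21.0% lower (40.1% in all). The median change of the 8 genes was 0.24 on the log2 scale, beside -0.01 for all genes tested. The 3 control libraries did not overlap with the 3 treated libraries in any of the 8 genes, which was so for 54.7% of all genes. Without VitC replicate 1, the counts were again 4 higher and 2 lower.

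**Figure D1:**
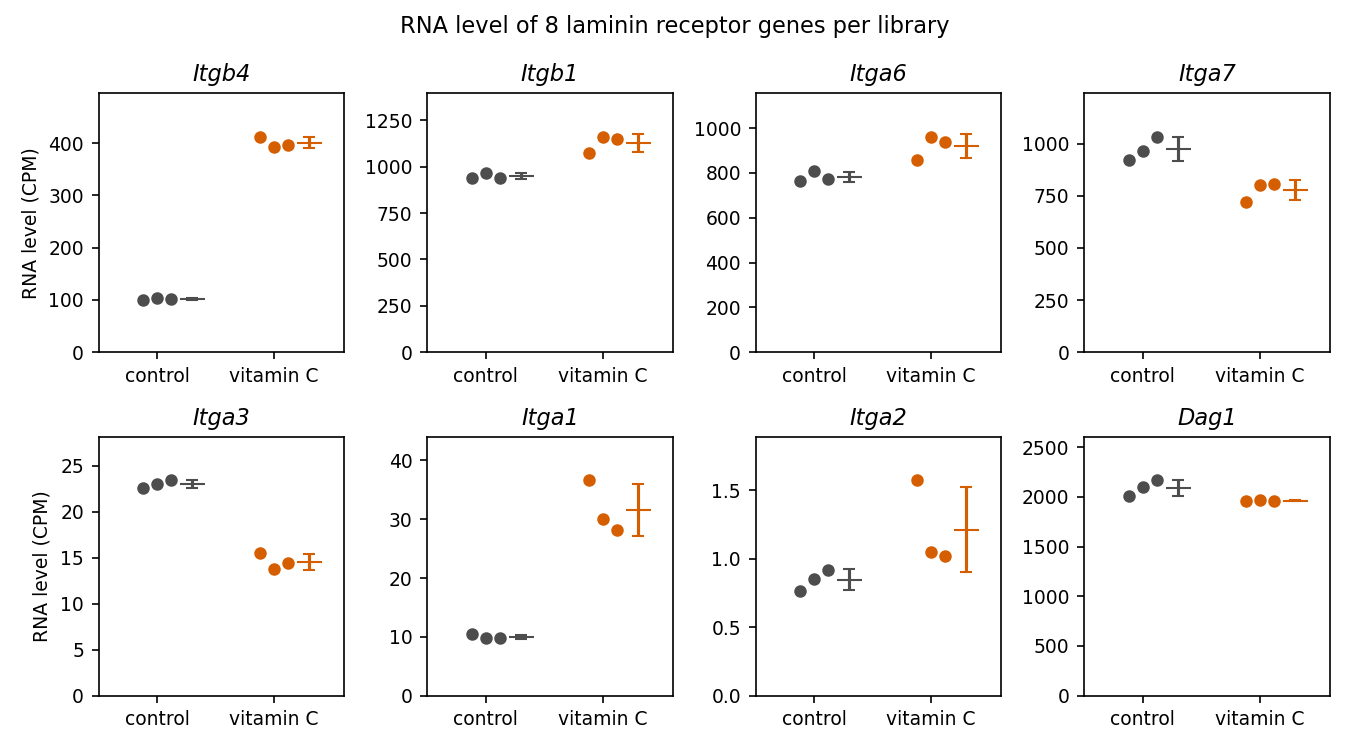
RNA level in CPM (linear axes from 0, scaled per gene) of each of the 8 genes in each library; points are libraries, and horizontal and vertical bars are the mean and SD over 3 libraries of a group. Itgb4 lies at a mean of 102 CPM in controls and 401 CPM with vitamin C, and in each panel the groups do not overlap.

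Itgb4 is the integrin beta chain that pairs with Itga6 alone and carries a long cytoplasmic tail that binds plectin. Its RNA level was 100.5, 103 and 102 CPM in the control libraries and 413, 393 and 397 CPM in the VitC libraries. Every treated library lay above every control, and the libraries of a group lay close together. The mean was 102 CPM (SD 1.32, n = 3) in controls and 401 CPM (SD 10.4, n = 3) in treated libraries, a change of 1.98 ± 0.05 on the log2 scale, or 3.94-fold (edgeR, adjusted p = 3.04e-07). The change was 1.92 to 1.99 over all 10 alternatives to the scaling, filter, tool and libraries. Itgb4 is also used as a marker of perineurial cells. Of 4 other perineurial markers with enough reads Ntn4 rose, Sfrp4 and Slc2a1 fell and 1 did not pass, and their list summed to 108 to 133 CPM in controls and 39.1 to 45.3 CPM with vitamin C. Cldn1, a defining perineurial marker, had at most 2 reads in any library.

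The partner of Itgb4 had a smaller change. Itga6, the alpha chain of the main laminin-binding integrins, was at 764, 809 and 773 CPM in controls and 859, 962 and 939 CPM with vitamin C. The treated libraries were all higher, with means of 782 CPM (SD 24.0, n = 3) in controls and 920 CPM (SD 54.0, n = 3) with vitamin C. The change was 0.23 ± 0.06 (edgeR, adjusted p = 0.0152). This call was lost with library-size scaling (adjusted p = 0.0705 in edgeR), without control replicate 1 (0.0545) and without VitC replicate 2 (0.0671). Itgb1, the beta chain shared by all the other alpha chains described here, was at 940, 967 and 938 CPM in controls and 1073, 1163 and 1151 CPM with vitamin C. It rose by 0.25 ± 0.05 (edgeR, adjusted p = 0.00665), and again the groups did not overlap.

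Ratios of reads within a library do not depend on scaling between libraries. They compare reads, not molecules, because gene lengths were not used. Itgb4 had 0.107 ± 0.0012 reads per read of Itgb1 in controls (SD, n = 3) and 0.356 ± 0.0251 with vitamin C. Per read of Itga6 it had 0.130 ± 0.0026 and 0.437 ± 0.0381. Itga6 per read of Itgb1 was 0.825 ± 0.0121 and 0.815 ± 0.0136, with overlapping groups (log2 difference -0.02, two-sided exact permutation p = 0.5). Itga7 per read of Itgb1 went from 1.03 ± 0.0649 to 0.688 ± 0.0147. For the 3 ratios other than Itga6 to Itgb1 the exact permutation p was 0.1, the smallest that 3 against 3 libraries can give, and 0.133 adjusted over the 4 ratios. The groups did not overlap in those 3 ratios.

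Itga7, an alpha chain of laminin receptors best known from muscle and present in Schwann cells, was at 923, 967 and 1033 CPM in controls. It was at 722, 802 and 808 CPM with vitamin C and fell by 0.33 on the log2 scale (SE 0.07, edgeR, adjusted p = 0.00543). All treated libraries were below all controls. Itga3, an alpha chain that binds laminins of epithelial type, was low, at 22.6, 23.0 and 23.4 CPM in controls and 15.5, 13.7 and 14.4 CPM with vitamin C. It fell by 0.66 (SE 0.07, edgeR, adjusted p = 1.87e-04). Skeletal muscle markers went the opposite way to Itga7: all 5 that were tested, of 10 listed, rose, and their summed level was 126 to 178 CPM in controls and 513 to 537 CPM with vitamin C. The part of muscle genes in the level of Itga7 was not tested. In bulk RNA, fewer cells of a type and less RNA per cell cannot be told apart.

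Itga1 and Itga2 are the alpha chains of receptors that bind collagen as well as laminin. Itga1 was at 10.4, 9.77 and 9.83 CPM in controls and 36.7, 30.0 and 28.2 CPM with vitamin C. It rose by 1.66 ± 0.11, or 3.15-fold (edgeR, adjusted p = 1.06e-05), and the lowest treated library was well above the highest control. Itga1 is also known from mural cells. Both mural markers tested, Pdgfrb and Tagln, of 7 listed, rose, and the list summed to 61.9 to 63.3 CPM in controls and 152 to 176 CPM with vitamin C, but the defining markers Rgs5, Cnn1, Acta2, Notch3 and Cspg4 had at most 10 reads in any library. Itga2 was barely detected, at 0.767, 0.856 and 0.921 CPM in controls and 1.58, 1.05 and 1.02 CPM with vitamin C, which is 21 to 40 reads per library. Its change of 0.51 ± 0.24 did not pass (edgeR, adjusted p = 0.125), and without VitC replicate 1 it was 0.29 ± 0.26.

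Dystroglycan did not pass in RNA. Dag1 was at 2011, 2097 and 2169 CPM in controls and 1962, 1965 and 1960 CPM with vitamin C. The treated libraries lay just below the lowest control, and the difference of -0.09 ± 0.05 did not pass (edgeR, adjusted p = 0.196).

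The 5 genes whose RNA pattern over the 6 libraries was most like that of Itgb4 were Dmtn, C1s, Dysf, Tdrd12 and Pck2. Likeness is the root mean square distance between centred log2 CPM values, here 0.0727 for Dmtn, 0.0975 for C1s, 0.0982 for Dysf, 0.1001 for Tdrd12 and 0.103 for Pck2, out of 10020 genes compared. Dmtn, an actin-bundling protein, was at 3.84 to 4.06 CPM in controls and 15.7 to 17.4 CPM with vitamin C. Dysf, a membrane repair protein, was at 3.84 to 4.78 CPM and 15.2 to 17.4 CPM.

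In hMeDIP, the summed peaks of 5 genes rose with vitamin C and those of 0 fell, beside 35.9% higher and 38.3% lower among 16140 genes with a peak (74.2% called in all, edgeR). Itgb4 was highest in change, at 0.54 ± 0.04 on the log2 scale, with 45.3, 46.8 and 47.0 CPM in controls and 67.2, 67.8 and 63.4 CPM with vitamin C. Dag1 rose by 0.42 ± 0.05, Itga3 by 0.39 ± 0.06, Itga6 by 0.31 ± 0.03 and Itgb1 by 0.18 ± 0.04 (edgeR, adjusted p at most 5.18e-04). Itga1 (-0.05 ± 0.03), Itga7 (-0.02 ± 0.03) and Itga2 (0.00 ± 0.04) did not pass (edgeR, adjusted p = 0.120, 0.496 and 0.949). Scaled by all counted reads in place of reads in peaks, all 8 genes were called higher, those 3 included. That scaling moves the median change of all peaks from 0.05 to 0.49 and of all gene sums to 0.43, and the share of hMeDIP reads inside peaks was 30.8% to 35.7% in controls and 40.8% to 43.9% with vitamin C.

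The order of the peak list bears on these values. On most chromosomes the listed positions run through the chromosome and then start again. Peaks of the first run mostly fell with vitamin C (2.85% higher and 87.1% lower of 56725, median -0.99), and those of the second mostly rose (52.6% higher and 12.7% lower of 122518, median 0.30). The sources used here do not say what sets the runs apart. The peaks of Itgb4, Dag1, Itga3 and Itgb1 were all in the second run, whereas Itga1 had 8, and Itga2, Itga6 and Itga7 each had 2, in the first. Of 940 genes with 4 or more peaks and all of them in the second run, 77.6% were called higher, with a median of 0.30 and quartiles of 0.14 and 0.46. Of those 4 genes, the summed change of Itgb4 lay above the upper quartile, those of Dag1 and Itga3 between the median and that quartile, and that of Itgb1 below the median. Of 6083 genes with peaks in both runs, whatever their number, 29.6% were called higher and 40.7% lower. Their median was -0.05, with quartiles of -0.27 and 0.14. Itga6 lay above that upper quartile, at 0.31, and Itga1, Itga2 and Itga7 lay between the quartiles.

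Peak by peak, 49 of the 101 were higher with vitamin C and 21 lower, beside 36.9% and 36.3% of all 215951 peaks (73.2% called in all, edgeR). Of the 87 in the second run, 47 rose and 10 fell (54.0% and 11.5%), and of the 14 in the first, 2 rose and 11 fell. Both shares of the second run are near those of all second-run peaks. With scaling by all counted reads 75 peaks were higher and 6 lower, and DESeq2 called 28 higher. In input DNA, 0 of the 101 peaks passed (edgeR; 5 at an unadjusted p under 0.05), with changes of -0.73 to 0.47 at only 7 to 221 reads per peak, and 0.0% of all peaks passed. Tested against input, hMeDIP enrichment rose in 32 peaks and fell in 12, beside 20.8% and 28.3% of all peaks (49.1% called in all, edgeR). In 42 peaks a call in the same direction was made in both fits. Both fits use the same hMeDIP counts, so this agreement is partly built in. Its share over all peaks was not taken, and enrichment calls were not split by run.

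**Figure D2:**
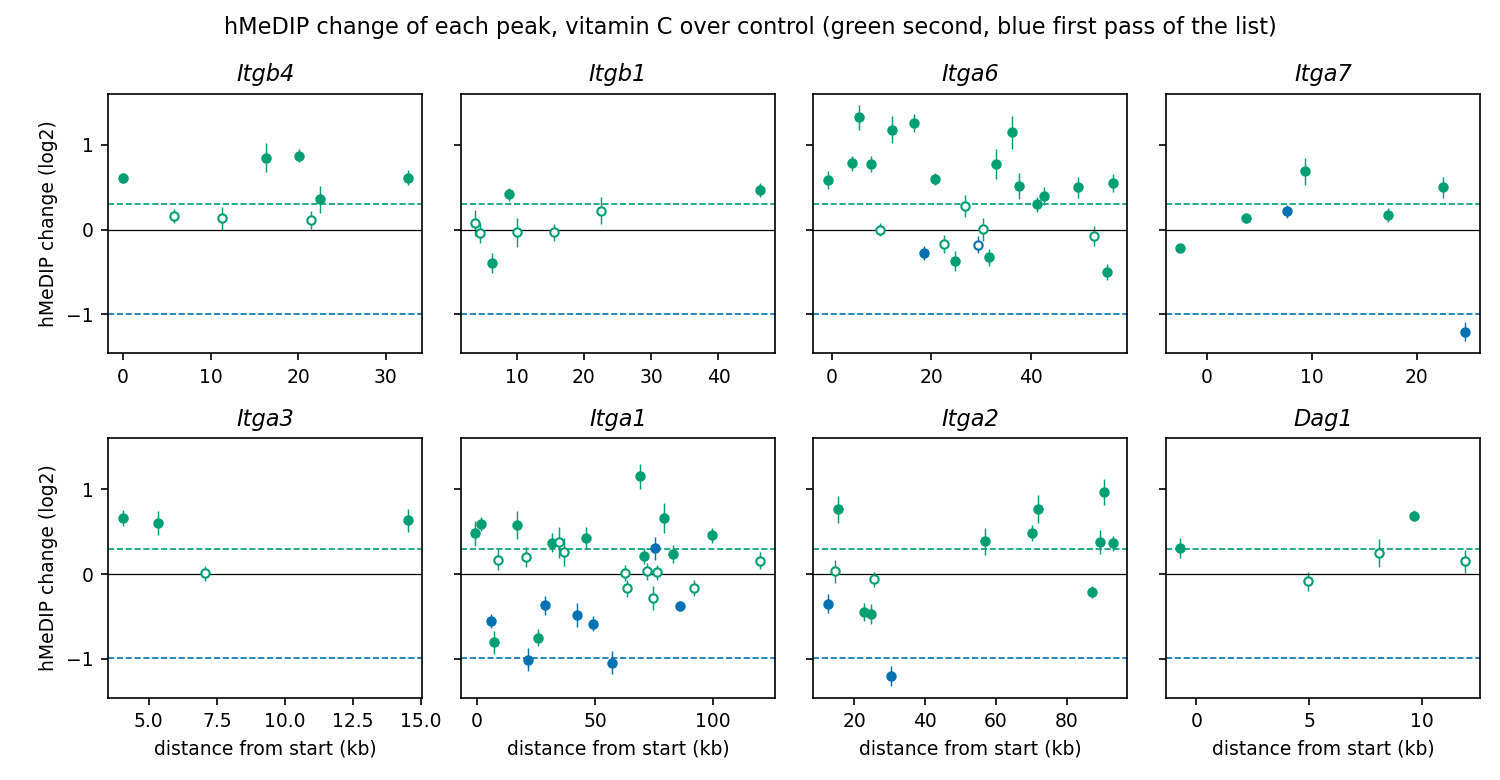
Change in hMeDIP (log2, vitamin C over control, bars are SE of the fit) of each of the 101 peaks against its distance from the transcript start in kb. Green points are peaks of the second run of the list and blue points of the first; filled points passed; dashed lines are the medians of all second-run (0.30) and first-run (-0.99) peaks. Itgb4 and Itga3 have no point below 0, whereas Itga1, Itga2 and Itga6 have points on both sides.

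The 8 Itgb4 peaks include the only one of the 101 that spans a transcript start. It lies at chr10:104522173-104525730 (positions as the list gives them; the sources used here do not name its genome build), from 1823 bases before to 1734 bases after the start. Its hMeDIP level was 14.3, 15.4 and 14.7 CPM in controls and 22.8, 22.5 and 22.1 CPM with vitamin C, with every treated library above every control. The change was 0.61 ± 0.06 (edgeR, adjusted p = 4.81e-12) and 0.56 relative to input, and the input itself was at 16.7 ± 1.78 and 17.3 ± 1.66 CPM (SD, n = 3). A gene body peak at chr10:104543505-104544671, centred 20080 bases after the start, rose by 0.87 ± 0.08, from 7.18, 6.67 and 8.04 CPM to 13.4, 14.0 and 12.4 CPM (edgeR, adjusted p = 3.76e-13). In all, 5 of the 8 peaks rose, and the other 3 differed by 0.11 to 0.16 without passing.

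**Figure D3:**
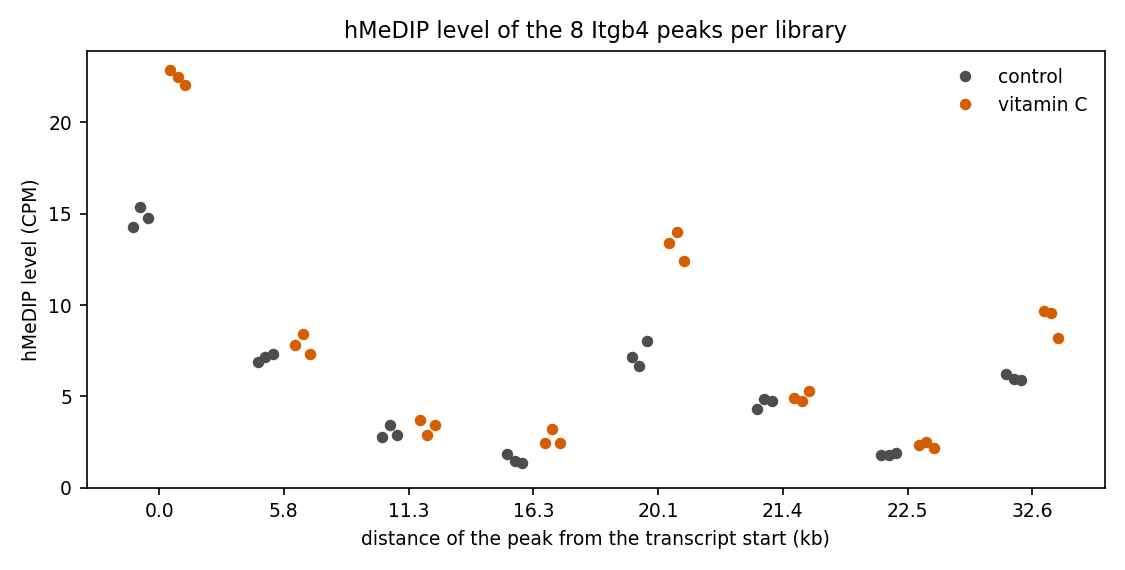
hMeDIP level in CPM (linear axis from 0) of the 8 Itgb4 peaks in each of the 6 libraries, ordered along the gene by distance from the transcript start in kb (evenly spaced, not to scale); points are libraries. The peaks that passed as higher are 5 of the 8, that at the start included, beside 52.6% higher among all second-run peaks. In the fit, replicates 1 and 3 of a group count as 1 sample.

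Itga6 had 24 peaks, of which 14 rose and 4 fell, so changes within 1 gene went both ways. The promoter peak at chr3:58441844-58442815 ends 286 bases before the start and rose by 0.59 ± 0.11, from 4.17, 3.55 and 4.31 CPM to 5.79, 6.02 and 6.21 CPM (edgeR, adjusted p = 3.80e-06). The peak with the smallest p, at chr3:58458513-58460621 in the gene body, rose by 1.26 ± 0.10, from 3.23, 4.11 and 3.03 CPM to 8.04, 8.31 and 7.94 CPM. The 4 peaks that fell were centred 18643 to 55282 bases after the start, among others that rose.

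Itgb1 had 8 peaks, of which 2 rose and 1 fell. None is classed as promoter, and the nearest is centred 3830 bases after the start. Its promoter is shown because it is dense in the dinucleotide CG, while no peak listed under the name Itgb1 is classed as promoter. Peaks listed under other genes were not checked for this stretch, and its methylation was not measured. The sequence is from RefSeq (GRCr8 build, chr19:73602027-73602326, plus strand, 250 bases before to 50 after the start), with each CG in capitals; GRCr8 is not known to be the build of the peak list.
Itgb1: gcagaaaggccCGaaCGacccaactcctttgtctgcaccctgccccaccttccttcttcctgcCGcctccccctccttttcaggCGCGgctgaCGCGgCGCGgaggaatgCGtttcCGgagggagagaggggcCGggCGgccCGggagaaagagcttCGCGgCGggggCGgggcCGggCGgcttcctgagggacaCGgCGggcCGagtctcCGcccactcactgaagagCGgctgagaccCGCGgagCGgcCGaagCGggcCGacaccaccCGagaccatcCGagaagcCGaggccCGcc
It holds 35 CG, and 6.13% of 33469 RefSeq promoters of this length hold at least as many. The higher peaks of Itgb1 lie in the gene body, centred 8903 and 46245 bases after the start. The first, at chr19:61685669-61687222, went from 7.33, 8.01 and 8.07 CPM in controls to 9.65, 10.7 and 10.6 CPM with vitamin C (0.42 ± 0.08). The second, at chr19:61723436-61724138, went from 6.69, 5.93 and 6.36 CPM to 8.96, 8.63 and 8.50 CPM (0.47 ± 0.09).

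Itga1 rose in RNA while its summed hMeDIP signal did not pass. It had 31 peaks, the most of the 8 genes, of which 11 rose and 9 fell. Of its 8 first-run peaks 7 fell, among them that with the highest CPM over a whole peak (not per length), chr2:47194653-47196657, at 17.2, 19.2 and 18.3 CPM in controls and 13.1, 14.4 and 14.3 CPM with vitamin C (-0.37 ± 0.06, and 0.07 with scaling by all counted reads). Near the start, both peaks rose. The peak at chr2:47281843-47282498 ends 422 bases before the start and went from 2.29, 2.47 and 1.56 CPM to 3.25, 2.86 and 2.51 CPM (0.48 ± 0.15, edgeR, adjusted p = 0.00403). The groups lay close there, and the peak did not pass in DESeq2, nor without control replicate 3, nor without replicates 1 and 3 of the controls. The peak at chr2:47278378-47281080 begins 341 bases after the start and went from 7.67, 8.44 and 7.46 CPM to 11.5, 10.99 and 12.8 CPM (0.59 ± 0.08).

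The promoter of Itga1 is shown because its start lies between these peaks that rose. It is from RefSeq (GRCr8, chr2:48545234-48545533, minus strand, same window), again with CG in capitals.
Itga1: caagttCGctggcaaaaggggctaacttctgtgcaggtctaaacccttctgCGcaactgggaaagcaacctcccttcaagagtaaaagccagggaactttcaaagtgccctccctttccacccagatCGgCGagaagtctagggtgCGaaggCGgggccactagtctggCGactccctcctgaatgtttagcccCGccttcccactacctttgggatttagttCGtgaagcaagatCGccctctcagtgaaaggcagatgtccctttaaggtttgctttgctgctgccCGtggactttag
It holds 11 CG, as many as or more than which are found in 39.0% of RefSeq promoters, against 35 in that of Itgb1. The promoters of Itga2 and Itga3 hold 11 and 27 (the latter reached by 13.9%). Those 4 genes were found in the sequence table.

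Itga2, with hardly any RNA, still had 14 hMeDIP peaks, 7 higher and 5 lower. Its strongest loss was at chr2:47066199-47066874, a first-run peak that fell by 1.198 on the log2 scale, from 5.60, 6.24 and 5.41 CPM to 2.48, 2.61 and 2.34 CPM (edgeR, adjusted p = 5.71e-12). Its peak of highest CPM, chr2:47009208-47010423, fell by 0.21 (edgeR, adjusted p = 0.0067). It did not pass with library-size scaling, in DESeq2, without control replicates 1 and 3 or without VitC replicates 1 and 3 (-0.11), and was at 0.26 without passing with scaling by all counted reads (edgeR, adjusted p = 0.0667). Itga3, whose RNA fell, had 3 of 4 peaks higher, as at chr10:82882489-82884032 (4.78, 4.29 and 5.23 CPM, then 7.48, 7.81 and 7.28 CPM, 0.66 ± 0.10). Its peak of highest CPM, chr10:82879766-82880711, did not differ beyond its error (0.01 ± 0.08). The RNA of Itga3 thus fell while its summed hMeDIP signal rose by 0.39. That rise lies within the quartiles, 0.14 and 0.46, of genes with 4 or more peaks all in the second run.

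Itga7 had the longest peak of the 101 and the one with most hMeDIP signal over its whole length, at chr7:3350409-3354811, from 4707 to 305 bases before the start. Per kb its level in controls was 8.34 CPM, below the 11.5 CPM of the Itga2 peak at chr2:47009208-47010423. It was at 37.2, 37.0 and 35.5 CPM in controls and 30.8, 32.0 and 30.1 CPM with vitamin C, a change of -0.22 ± 0.05 (edgeR, adjusted p = 1.67e-04) that turned to 0.24 with scaling by all counted reads. It was the only one of the 6 promoter-class peaks that did not rise. These 6 are all in the second run, where 56.3% of all promoter-class peaks rose and 10.5% fell. A first-run peak at chr7:3379526-3380252 fell by 1.21, from 6.96, 6.37 and 6.91 CPM to 3.00, 2.51 and 3.21 CPM. The 5 other Itga7 peaks rose, by 0.13 to 0.69. Dag1, whose RNA did not pass, had 5 peaks, of which 2 rose and 0 fell. The larger rise was at chr8:116982399-116984701 in the gene body, from 11.5, 10.8 and 10.3 CPM to 17.7, 17.0 and 17.3 CPM (0.69 ± 0.07, edgeR, adjusted p = 2.51e-12). Its promoter peak at chr8:116993375-116994456 rose by 0.30 ± 0.12 (edgeR, adjusted p = 0.0199) but did not pass in 6 of 14 alternatives.

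**Figure D4:**
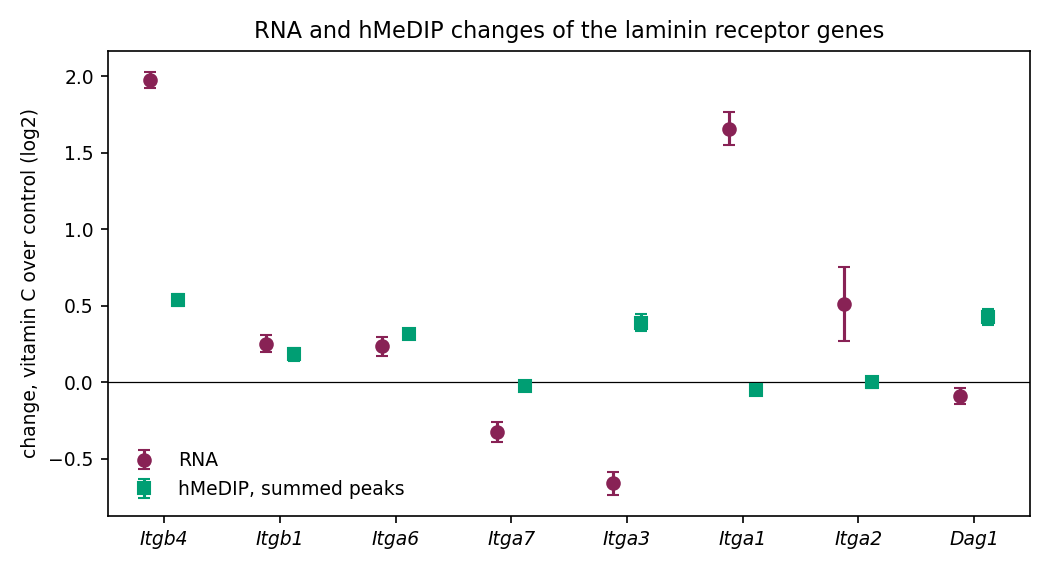
Change with vitamin C (log2, bars are SE of the fit) in RNA (circles) and in summed hMeDIP peaks (squares) of each gene. Both are above 0 for Itgb4, Itgb1 and Itga6; Itga1 is at 1.66 in RNA and -0.05 in hMeDIP, and Itga3 at -0.66 and 0.39.

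The counts of the related lists below stand beside 19.1% higher and 21.0% lower of all genes tested in RNA. Among other integrin chains, 6 of 13 tested rose in RNA and 2 fell, with a median of 0.23. Itga9, which binds tenascin and other matrix proteins, rose by 1.16 ± 0.09. Itgb8, a chain that activates latent TGF-beta, rose by 0.74 ± 0.07, from 1593, 1624 and 1513 CPM to 2849, 2571 and 2493 CPM. Itgb5, a vitronectin receptor chain, rose by 0.61 ± 0.09, and Itga5, the fibronectin receptor chain, fell by 0.56. Of genes below the level at which list genes were named, and so chosen after their values were seen, Itga11, a collagen receptor chain, had 6, 11 and 4 reads in controls and 161, 140 and 143 with vitamin C. Itgb6 had 0, 0 and 2 reads in controls and 28 to 38 with vitamin C.

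Proteins that join Itgb4 to the cytoskeleton or to other membrane proteins gave 3 higher and 1 lower of 5 tested. Plec, encoding the plectin that binds the Itgb4 tail, rose by 0.35 ± 0.07, and the tetraspanin Cd9 by 0.68 ± 0.06. Another tetraspanin, Cd81, fell by 0.42. Dst, a linker of the plectin family, rose by 0.42 ± 0.14 (edgeR, adjusted p = 0.0410), and it did not pass when any of the controls was left out (0.0864 to 0.139) and was at 0.22 ± 0.06 without VitC replicate 1. Of 15 integrin adaptors 6 rose and 0 fell, with a median of 0.17. Zyx, a focal adhesion protein, rose most, by 0.96 ± 0.07, then Lims1 (0.48 ± 0.08), Tln2 (0.41 ± 0.07) and Vcl (0.34 ± 0.05). The rest of the 6 rose less, and 9 of the 15 did not pass.

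While Dag1 did not pass, 10 of 14 tested genes of the dystrophin complex rose and 0 fell, with a median of 0.50. Of all genes tested, 19.1% were higher and 21.0% lower. Dmd, encoding dystrophin, was at 67.4, 56.7 and 46.6 CPM in controls and 165, 130 and 116 CPM with vitamin C (1.27 ± 0.16). Utrn, its relative utrophin, rose by 0.85 ± 0.12, the sarcoglycan Sgcd by 1.47 ± 0.32 and the syntrophin Sntb1 by 0.75 ± 0.14. In these 4 genes VitC replicate 1 was the highest library, and Sgcd was at 78.9 CPM there against 33.1 and 32.2 CPM in the others. Without that library its change was 0.92. Dystrophin and sarcoglycans are muscle proteins as well, and the muscle markers given above moved the same way; their part in this list was not tested. Enzymes that build the laminin-binding sugar of dystroglycan gave 2 higher and 3 lower of 9 tested (median 0.06), and 1 higher with library-size scaling or without control replicate 1 or 2 or VitC replicate 2 or 3. Pomt1, which adds its first mannose, fell by 0.47, Pomgnt2 by 0.45 and the kinase Pomk by 0.32, while B3galnt2 rose by 0.57 ± 0.08.

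Of 7 laminin chains and other ligands tested, 5 rose and 0 fell, with a median of 0.43. Lama2, the alpha chain of the main Schwann cell laminin, was at 479, 442 and 438 CPM in controls and 1378, 1072 and 991 CPM with vitamin C (1.34 ± 0.12). Lamb1 rose by 0.93 ± 0.06, Lamc1 by 0.43 ± 0.06 and agrin, Agrn, by 0.50 ± 0.06. Other laminin-binding receptors gave 3 higher and 1 lower of 5: Bcam, a receptor of laminin alpha chains, rose by 1.05 ± 0.10 and the syndecans Sdc4 and Sdc2 by 0.57 ± 0.07 and 0.43 ± 0.07, while Sdc1 fell by 0.60. Without control replicate 1 the number lower was 2. All genes named from these lists passed edgeR at an adjusted p of 0.0410 or below, and the lists' medians stand beside -0.01 for all genes tested.

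**Figure D5:**
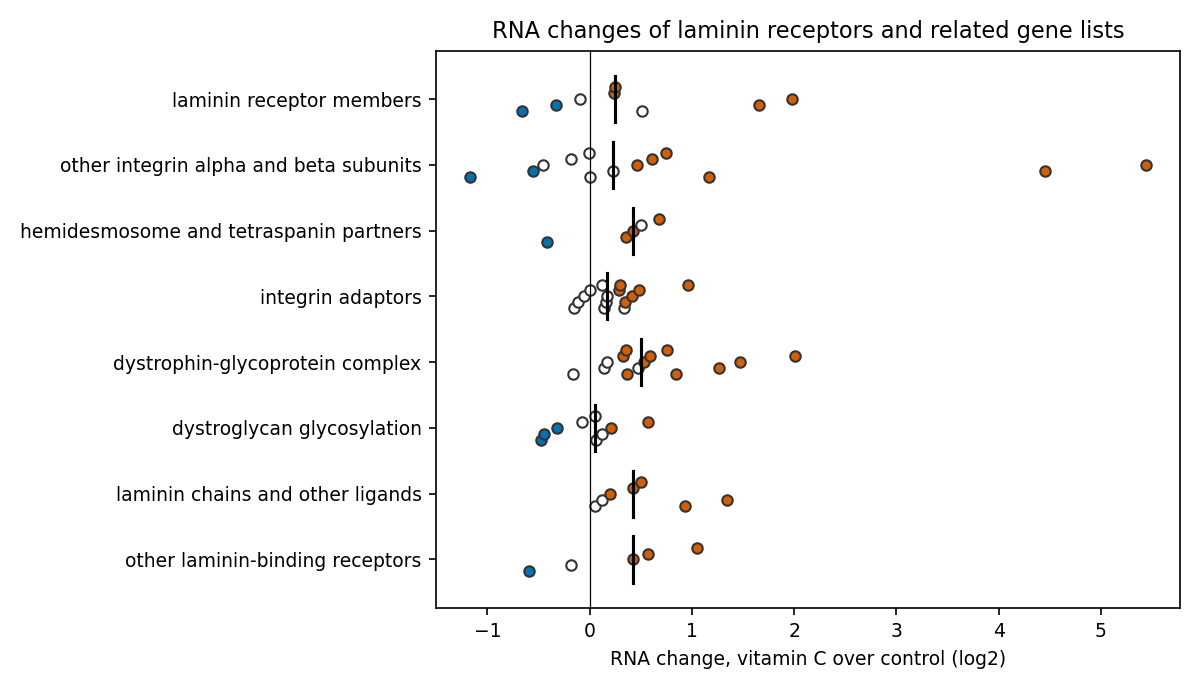
RNA change (log2, vitamin C over control) of each tested gene in the 8 receptor genes and 7 lists of related genes; orange points passed as higher, blue as lower, white did not pass, and the black line is the list's median. The dystrophin complex has 10 of 14 points in orange, and the glycosylation list has 2 in orange and 3 in blue.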

How the data were processed

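RNA, hMeDIP and input DNA were sequenced in 3 control and 3 VitC libraries each. Per gene and per peak, the authors deposited raw read counts, with a peak list that names each peak's gene, region class and distance from the transcript start, per the file headers. Per the labels' protocols, RNA was depleted of ribosomal RNA and DNA was precipitated with an hMeDIP kit. Tools named in the submitters' processing notes, with no role for each, are HTSeq, BWA, STAR, Trim Galore and CASAVA 1.4. The sources used here do not give the genome build, annotation, strand setting, peak caller or base convention, so overlapping or antisense genes cannot be told apart.

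Counts were tested over all genes or peaks with edgeR 4.0.16 in R 4.3.3 (quasi-likelihood F test, TMM factors, default expression filter, Benjamini-Hochberg adjustment at 0.05, treatment as the only term). Entries naming no gene or peak were left out; reads in genes were 46.1% to 57.7% of counted RNA reads. Input libraries alone were fitted as 3 against 3, since no pair agreed more closely than the others. Every input pair within a group differed by less than the sampling noise. Chi-square per degree of freedom was 0.982 to 0.988 in controls and 0.978 to 0.984 in VitC. The 3 input libraries of a group may therefore not be separate replicates, and input SDs may hold sampling noise only. Enrichment was fitted over hMeDIP and input with a term per sample. There replicates 1 and 3 were summed in input as in hMeDIP, which left n = 2 per group, so that each sample had 1 column of each. The merging of hMeDIP replicates 1 and 3 follows a rule whose bound of 1.2 other pairs also met; the pair that agreed within sampling noise in both groups was taken. Scripts were tested on simulated data. SE is the log2 change divided by the square root of F. Reads without molecular identifiers are not known to be independent molecules.

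Named are the 8 genes, up to 3 peaks each (smallest p, highest level, promoter class), up to 4 passing genes per list whose average log2 CPM was 3 or more, with no overlap between groups, and 5 genes by likeness to Itgb4. The other peaks described, Itga11 and Itgb6 were chosen after their values were seen. The members, lists and rules were chosen with earlier results of these data known. Alternatives were library-size scaling, scaling by all counted reads, DESeq2 1.42.0, no filter, the replicate block, 3 against 3 hMeDIP libraries and leaving out each replicate. Merging replicates in the fit of input alone was added after seeing the data.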

Additional observations from a re-analysis of the deposited data

How the results depend on the processing

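The RNA counts of the 8 genes stayed at 3 or 4 higher and 2 lower over 10 alternatives. The largest dependence in hMeDIP was on scaling. Scaled by all counted reads, 75 peaks were higher and 6 lower (129858 and 51017 of all peaks, against 79598 and 78467), 8 summed genes were higher, and enrichment over input was higher in 63 peaks and lower in 5 (100081 and 33978 of all peaks, against 44891 and 61077). By its construction that scaling counts a larger share of reads in peaks as a rise, while scaling to reads in peaks takes such a shift out. Which scaling is nearer to the level of 5-hydroxymethylcytosine was not tested. DESeq2 called 28 peaks higher (43730 of all). Enrichment was higher in 18 peaks without control replicates 1 and 3 (22126 of all), and lower in 7 without control replicate 2 and in 6 without VitC replicates 1 and 3 (37403 of all); the cause was not tested. Leaving out replicates gave 33 to 48 peaks higher and 17 to 23 lower in hMeDIP, 18 to 30 and 6 to 10 in enrichment. With library-size scaling 1 adaptor and 1 gene of the dystrophin complex fell. Over all RNA genes, 1784 were lower without control replicate 2, against 2715.

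Summed changes near 0 changed sign; none of these passed except under scaling by all counted reads. Library-size scaling gave 0.027 for Itga7, 0.0026 for Itga1 and 0.049 for Itga2, and scaling by all counted reads gave 0.42, 0.39 and 0.45. Itga2 was at 0.0046 in DESeq2, 0.0076 with 3 against 3 libraries and 0.0080 with the replicate block. Leaving out replicates gave -0.046 to 0.0022 for Itga7 (0.0018 without control replicate 1) and -0.013 to 0.025 for Itga2 (0.019 without control and 0.014 without VitC replicates 1 and 3). Scaling by all counted reads turned peaks at chr2:47194653-47196657 (0.070), chr2:47009208-47010423 (0.26) and chr7:3350409-3354811 (0.24). The Itga3 peak at chr10:82879766-82880711 was at -0.064 in DESeq2 and -0.16 to 0.069 over left-out replicates (-0.062 without VitC replicate 3, -0.091 without VitC replicates 1 and 3).

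Replicate numbers were not taken to pair the samples: deviations of same-numbered RNA libraries correlated at 0.213, 0.0686 and 0.0555, and of hMeDIP libraries at -0.029, -0.200 and -0.110. With the replicate number as a block, 2705 RNA genes were higher and 2839 lower, and the 8 genes stayed at 4 and 2. Peaks were at 45 higher and 22 lower. The log2 change in the ratio of Itgb4 to Itgb1 was 1.73 (exact sign-flip p = 0.25, the smallest possible for 3 pairs). Depth limits Itga2 in RNA and all input values.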
